A study of Mus musculus with 6 samples.

Results

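The Spink genes encode secreted inhibitors of serine proteases with the Kazal fold, and 9 of them were described here in regrowing mouse prostate: Spink11, Spink12, Spinkl, Spink5, Spink1, Spink2, Spink4, Spink8 and Spink10. They were chosen by family name, with the measured difference between Gli1-/- and wild-type prostates already known, and in particular the low mutant level of Spink11. Each had 1 probe set, so they made up 9 of the 20263 genes measured. None of these 9 probe sets shared its values with any other on the array. Spink1 was identified by its RefSeq transcript and carries the older symbol Spink3. The family label rests on these names, because no protein sequences were used.

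Whole-lobe RNA came from 3 wild-type mice and 3 Gli1-/- mice, and each sample was the ventral plus dorsolateral prostate of 1 animal. All 6 mice had been castrated at 8 weeks of age and given a testosterone pellet under the skin 2 weeks later, and the lobes were taken 3 days after that, with an age of 10 weeks on the label. Gli1 encodes a transcription factor of the Hedgehog pathway. The mutants were described as loss-of-function, and the sources used here give neither the allele nor the strain. The Gli1 probe set differed by -0.12 (SE 0.10) with overlapping groups, and with the allele unknown this does not check the labels. Values are deposited log2 intensities from a 1-colour array, and sample medians lay between 6.76 and 6.95. Array intensity depends on the probes, so levels were compared between mice and not between genes. The position of a gene among all probe sets is given only to show whether it was bright or near the dim end, where differences are compressed.

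A Kazal domain is a small fold held by disulfide bonds that presents a loop to the active site of a protease and blocks it. Spink proteins keep digestive, epidermal and reproductive tract proteases in check, and several are products of the male accessory glands under androgen control. Spink1 is a trypsin inhibitor that also binds sperm, and Spinkl is a protein of mouse seminal vesicle fluid. Spink8, Spink10, Spink11 and Spink12 were described from mouse epididymis. Spink5 is a large inhibitor with many domains that restrains the kallikreins of the epidermis. Spink2 belongs to the testis and restrains the sperm protease acrosin, and Spink4 is a product of intestinal goblet cells.

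The members did not behave alike. Spink11, Spinkl and Spink1 were lower in every mutant than in every wild-type mouse, by 8.72-fold, 3.16-fold and 1.49-fold between the mean deposited values. The mutant levels of Spink11 and Spinkl were near the dim end of the array, so the first 2 folds are not measures of transcript amount. Spink5 averaged 1.87-fold higher in the mutants, with overlapping groups. Of the other 5, Spink8 differed by -0.37 on the log2 scale, and Spink2, Spink4, Spink10 and Spink12 by no more than 0.13 in size. In all, 7 of the 9 differences were negative and 2 positive, with a median of -0.13 against -0.01 over all genes.

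**Figure D1:**
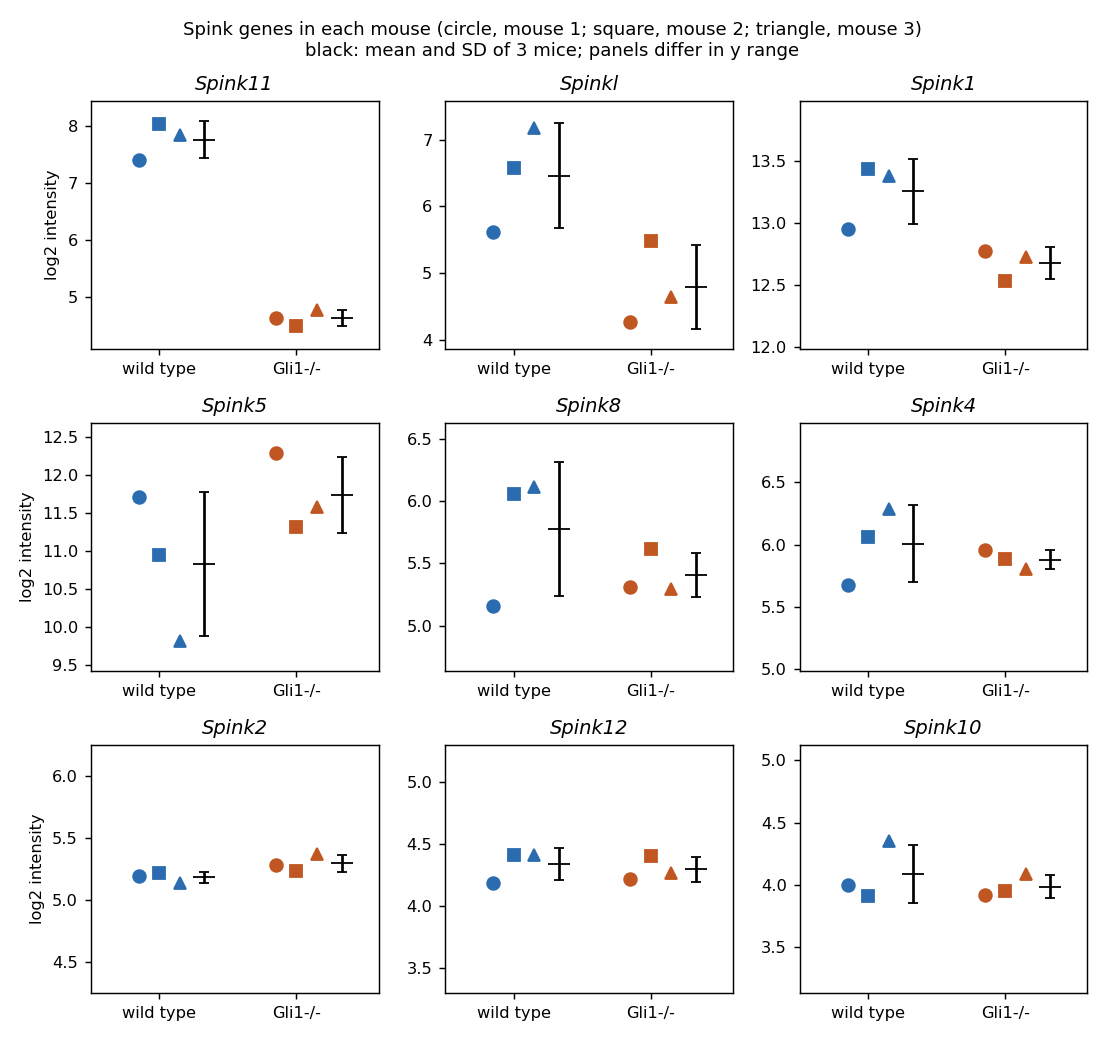
Log2 intensity of the 9 Spink genes in each of 3 wild-type and 3 Gli1-/- mice, with the mean and SD of each group in black; panels differ in y range. The groups stand far apart for Spink11 only, lie close but separate for Spinkl and Spink1, and overlap for Spink5 and Spink8.

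On the log2 scale, wild-type mice 1, 2 and 3 read 7.39, 8.03 and 7.84 for Spink11, whereas mutants 1, 2 and 3 read 4.64, 4.49 and 4.77. The wild-type mice were all high, the mutants all low, and the gap between the nearest mice of the 2 groups was 2.62. Group means were 7.76 ± 0.33 and 4.63 ± 0.14 (SD, n = 3), a log2 difference of -3.12 (SE 0.17, 95% interval -3.52 to -2.73). The wild-type mean stood at the 63.4 percentile of all probe sets and the mutant mean at the 16.8 percentile. The mutant level is therefore near the dim end of the array, and whether any transcript was left in the mutants cannot be read from it.

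For Spinkl the wild-type mice read 5.62, 6.58 and 7.18, and the mutants 4.27, 5.48 and 4.64, in the same order of mice. Mice differed widely inside both groups, and the groups were separated by 0.14 between wild-type mouse 1 and mutant 2. Means were 6.46 ± 0.79 and 4.80 ± 0.62 (SD, n = 3), a difference of -1.66 (SE 0.43, 95% interval -2.65 to -0.68). Its SE was larger than that of Spink11. The mutant mean stood at the 18.7 percentile, near the dim end of the array, so the fold describes the deposited values and can understate the difference in transcript.

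Spink1, at the 99.9 percentile, was among the brightest probe sets of the array. It read 12.95, 13.43 and 13.37 in wild-type mice and 12.77, 12.53 and 12.72 in mutants. The groups did not overlap, and wild-type mouse 1 lay 0.18 above the nearest mutant. Means were 13.25 ± 0.26 and 12.68 ± 0.13 (SD, n = 3), a difference of -0.58 (SE 0.15, 95% interval -0.92 to -0.23).

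Spink5 read 11.71, 10.96 and 9.82 in wild-type mice and 12.29, 11.32 and 11.59 in mutants. The wild-type mice spanned 1.89 on the log2 scale, and wild-type mouse 1 lay above mutants 2 and 3. Means were 10.83 ± 0.95 and 11.74 ± 0.50 (SD, n = 3), a difference of 0.91 (SE 0.45) whose 95% interval, from -0.15 to 1.96, includes 0. The difference was 0.40 without wild-type mouse 3 and 1.35 without wild-type mouse 1.

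Spink8 read 5.15, 6.06 and 6.11 in wild-type mice and 5.31, 5.61 and 5.29 in mutants. Wild-type mouse 1 was the lowest of all 6 mice, so the groups overlapped and the difference of -0.37 (SE 0.25, 95% interval -0.95 to 0.21) lay inside the spread. Without that mouse it was -0.68, and without wild-type mouse 3 it was -0.20.

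The other members were flat. Spink4 read 5.68, 6.06 and 6.29 in wild-type mice and 5.95, 5.88 and 5.80 in mutants, a difference of -0.13 (SE 0.16). All 3 mutant values of Spink4 lay inside the wild-type range. Spink2 read 5.19, 5.22 and 5.14 in wild-type mice and 5.29, 5.23 and 5.37 in mutants, a difference of 0.11 (SE 0.09). Its groups were apart by less than 0.01, so the order is not a measurable difference. Spink12 and Spink10 were the dimmest members, at the 12.5 and 9.3 percentiles, with differences of -0.04 (SE 0.11) and -0.10 (SE 0.13). Spink12 ran from 4.19 to 4.41 and Spink10 from 3.91 to 4.35 over the 6 mice. At such intensities expression and array background cannot be told apart.

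The share of all genes is the background for these counts. The groups did not overlap with the mutants lower in 3 of the 9 members, against 6.01% of all genes, and with the mutants higher in 1 of 9, against 8.34%. At a limma adjusted p under 0.05, 1 of the 9 was called, Spink11, against 0.0197% of all genes. The members were chosen with this contrast known, so nothing is read from these shares. For the gene lists further on, 10.5% of all genes had an unadjusted p under 0.05 in either direction.

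**Figure D2:**
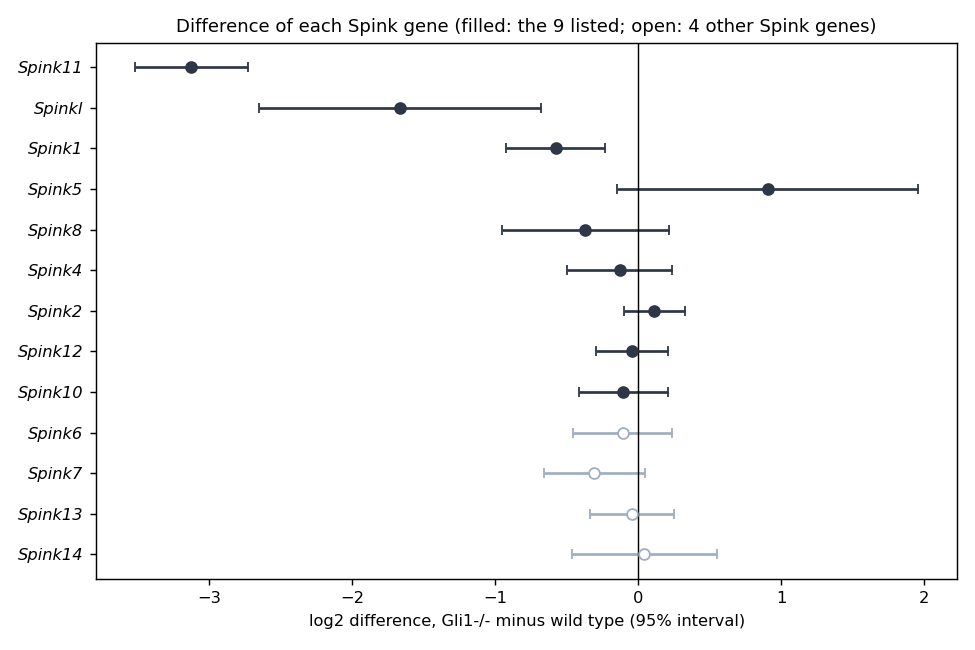
Log2 difference (Gli1-/- minus wild type, x axis) with the 95% interval from limma for the 9 members (filled) and for Spink6, Spink7, Spink13 and Spink14 (open). The intervals of Spink11, Spinkl and Spink1 lie wholly below 0, and the other 10 include 0. The intervals are not adjusted for the number of genes, and the members were chosen with this contrast known. No test is read from them, and Spinkl and Spink1 were not called (limma adjusted p = 0.253 and 0.255).

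The 4 further Spink genes on the array gave no call. Spink6, an epidermal inhibitor of kallikreins in humans, differed by -0.11 (SE 0.15), Spink7, known from human oesophageal epithelium, by -0.31 (SE 0.15), Spink13 by -0.04 (SE 0.13) and Spink14 by 0.04 (SE 0.22). The lowest limma adjusted p among them was 0.538, for Spink7. All 4 lay at or below the 13.5 percentile of probe sets, with overlapping groups. Spink7 read 4.17, 4.40 and 4.73 in wild-type mice and no higher than 4.24 in the mutants.

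Of the 13 Spink genes on the array, 10 lie on chromosome 18, in 2 groups, by the gene order of the RefSeq table for GRCm38.p6. In the first group the order of the Spink genes is Spink1, Spink5, Spink14, Spink6, Spink12, Spinkl and Spink11. Spinkl and Spink11, the members with the largest differences, are direct neighbours at its end. Spink12, the nearest Spink gene before them, differed by -0.04. The 5 measured genes between or beside the first group, namely Jakmip2, Gm94, Npy6r, Myot and Dcp2, differed by -0.10 to 1.53, and none was called (lowest limma adjusted p = 0.153).

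Npy6r, a neuropeptide Y receptor gene next to Spink11, read 3.65, 3.56 and 3.73 in wild-type mice and 3.49, 3.63 and 3.52 in mutants, a difference of -0.10 (SE 0.10). Npy6r was dim in every mouse. Myot, the gene of the muscle Z-disc protein myotilin, lies beyond it and was 1.53 (SE 0.29) higher in the mutants (limma adjusted p = 0.153). In the skeletal muscle marker list 6 of 6 differences were positive, with 0 called (lowest limma adjusted p = 0.316; 2 genes at an unadjusted p under 0.05), overlapping groups for every gene, and a summed log2 intensity of 10.33 to 10.94 in wild type and 10.52 to 11.59 in the mutants, and the part of muscle tissue in the Myot value was not tested. The second group holds Spink10, Spink7 and Spink13. Its 5 measured neighbours differed by -0.47 to 0.14, with Apcdd1, an inhibitor of Wnt signalling, the lowest (limma adjusted p = 0.241). Spink4, Spink2 and Spink8 stand alone on chromosomes 4, 5 and 9.

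**Figure D3:**
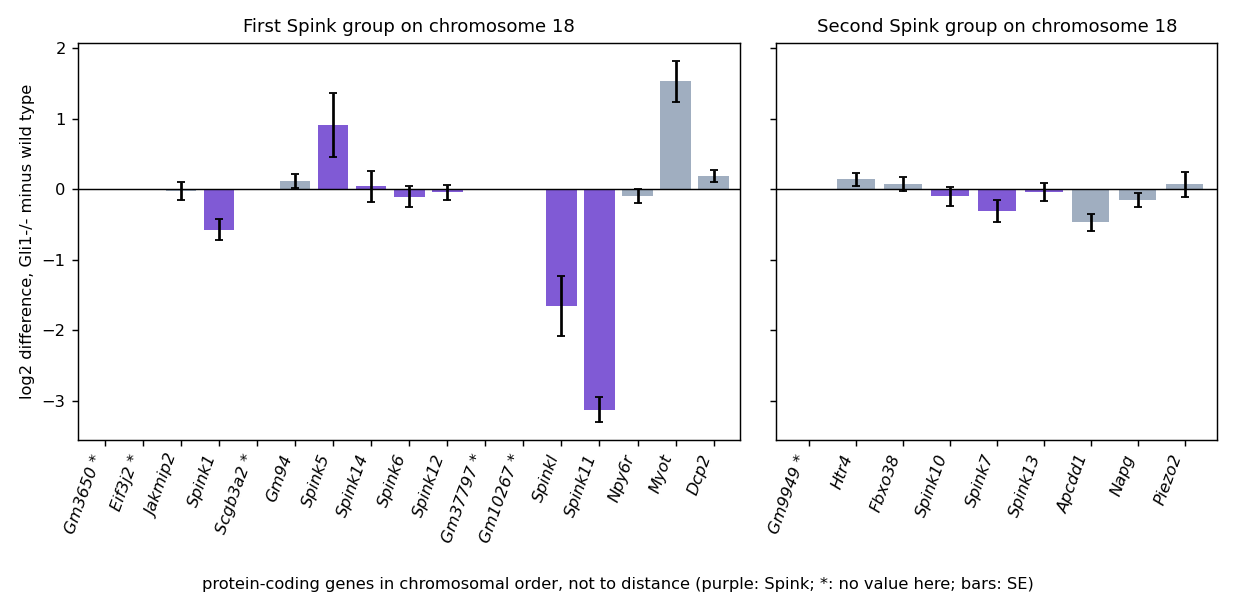
Log2 difference (Gli1-/- minus wild type, bars, with the SE) of protein-coding genes in their order along chromosome 18 around the 2 groups of Spink genes, drawn by order and not by distance; genes marked with an asterisk have no value here. The neighbours Spinkl and Spink11 reach -1.66 and -3.12, while the Spink genes between Spink5 and Spinkl lie near 0.

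Mice of 1 genotype differed in ways that several members shared. Wild-type mouse 1 was the lowest of its group for Spink11, Spinkl, Spink1, Spink8, Spink4 and Spink12, and the highest for Spink5. Wild-type mouse 3 was the highest for Spinkl, Spink8, Spink4, Spink12 and Spink10, and the lowest for Spink5. Among the mutants, mouse 2 was the highest for Spinkl, Spink8 and Spink12 and the lowest for Spink11, Spink1, Spink5 and Spink2. With 3 mice in a group these orders are descriptions with no test.

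Seminal vesicle transcripts varied between the same mice. The seminal vesicle is the gland beside the prostate. For each of 9 marker genes the 6-mouse mean was subtracted from the log2 values, and the average over the genes was taken as a score. Wild-type mice 1, 2 and 3 scored -0.59, -0.25 and 1.26, and mutants 1, 2 and 3 scored -0.66, 0.82 and -0.59. Of the 9 genes, 7 were lower in the mutants (median -0.08), with 0 called (lowest limma adjusted p = 0.105; 1 gene at an unadjusted p under 0.05). Wild-type mouse 3 and mutant 2 stood above the others, and the groups overlapped. Mutant 2 was the highest mutant for 4 of the 9 genes and wild-type mouse 3 the highest wild-type mouse for 8. The summed intensity of the 9 genes, on the log2 scale, ran from 7.68 to 11.14 in wild type and from 7.67 to 11.35 in the mutants. For Svs5, a seminal vesicle secretory protein gene, wild-type mouse 3 read 10.36 and mutant 2 read 9.37, and the other 4 mice read 4.31 to 6.07. Svs3a ran the other way in the mutants: it read 4.88, 5.20 and 5.64 in wild-type mice and no more than 4.08 in the mutants, with the lowest value, 3.50, in mutant 2, a difference of -1.38 (limma adjusted p = 0.105). Svs6, Sva, Svs3b, Svs1 and Svs3a were dim, at the 5.2, 7.1, 8.8, 12.9 and 15.6 percentiles. None of the 9 genes had a mean above the median probe set.

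The mice with the highest seminal vesicle score in each group were also those with the highest Spinkl. Leaving out both, a choice made after these values were seen, gave a Spinkl difference of -1.64 (SE 0.34), against -1.66 with all mice. For Spinkl wild-type mouse 3 lay 0.721 and mutant 2 lay 0.685 above the group mean. Leaving out both therefore lowers both means alike, and the near-equal difference says nothing about seminal vesicle tissue. Without these mice Spink11 differed by -3.01, Spink1 by -0.44 and Spink5 by 0.61. The Spink11 call was lost there, with 2 mice left in each group (limma adjusted p = 0.0787). The highest wild-type value of Spink11 was in mouse 2, and its lowest value of all was in mutant 2. The part of seminal vesicle tissue in the Spink values was not tested.

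Prostate secretory genes had negative differences, as did Spink11, Spinkl and Spink1, but none passed the test. All 12 genes of that list were negative, with a median of -0.50 and 0 limma calls over all genes (lowest adjusted p = 0.0882). In 8 of the 12 every mutant lay below every wild-type mouse, against 6.01% of all genes, and 7 of the 12 had an unadjusted p under 0.05, against 4.58% of all genes with the mutants lower. The list's 3 brightest genes were 9530002B09Rik, which differed by -0.25 with overlapping groups, Tgm4, the prostate transglutaminase (-0.52), and Msmb, microseminoprotein (-0.48). Differences in the list ran from -1.87 for Fgl1 to -0.19 for Sbpl. Scores of the list were 0.24, 0.17 and 0.61 in wild-type mice and -0.44, -0.17 and -0.41 in mutants. Its summed intensity ran from 16.03 to 16.40 in wild type and from 15.66 to 15.88 in the mutants on the log2 scale, and all 12 genes lay above the median probe set. In whole tissue fewer secretory cells and less RNA per cell cannot be told apart, and the part of either in the Spink values was not tested.

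Markers of luminal and basal epithelium had mostly positive differences, none of which passed the test. The luminal list had 8 of 9 genes positive (median 0.17) and the basal list 4 of 4 (median 0.42), with 0 called in either (lowest limma adjusted p = 0.396 and 0.357; 2 genes of each at an unadjusted p under 0.05). The keratin genes Krt8 and Krt5, of luminal and basal cells, differed by 0.22 and 0.24. Luminal scores were 0.03, -0.10 and -0.18 in wild-type mice and 0.12, 0.07 and 0.06 in mutants, and basal scores 0.04, -0.36 and -0.27 and 0.43, 0.25 and -0.09. The summed intensity of the luminal genes ran from 14.54 to 14.79 in wild type and from 14.81 to 14.90 in the mutants on the log2 scale. That of the basal genes ran from 11.64 to 12.12 and from 11.90 to 12.39. Spink5, like these lists, was higher in mutant 1 than in any wild-type mouse. In mutants 2 and 3 Spink5 (11.32 and 11.59) lay below wild-type mouse 1 (11.71), whereas both luminal scores lay above every wild-type score. The basal score lay above every wild-type score in mutant 2 but not in mutant 3. The part of epithelial content in the Spink5 value was not tested.

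**Figure D4:**
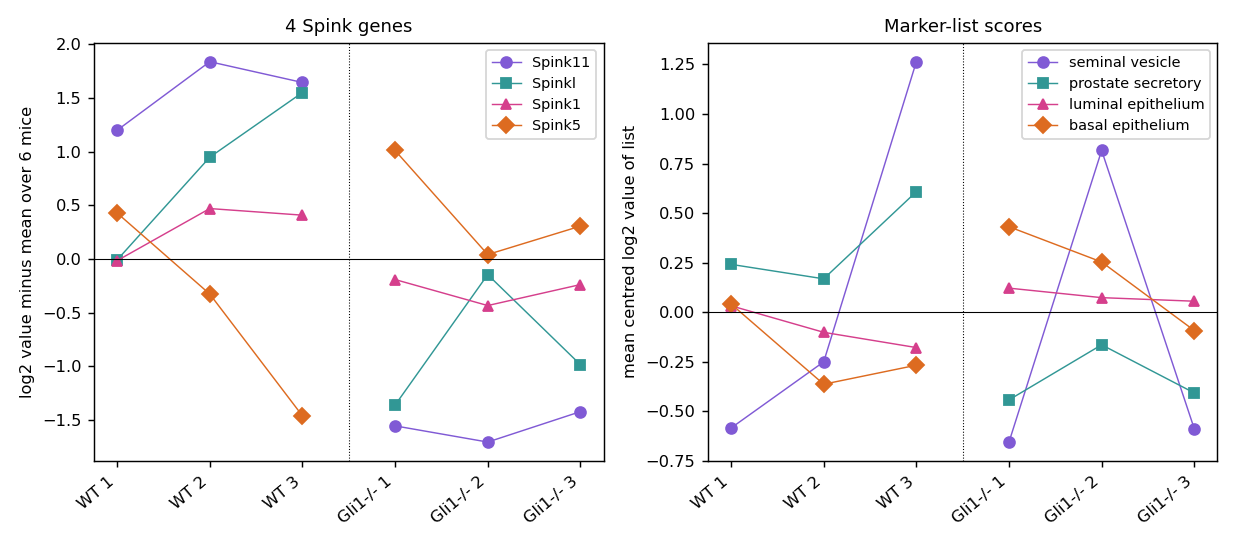
Left, log2 values of Spink11, Spinkl, Spink1 and Spink5 minus the 6-mouse mean of the gene; right, scores of 4 marker lists in the same mice (WT, wild type). Lines join values of 1 gene or list within a group and imply no order; the seminal vesicle score peaks in wild-type mouse 3 (1.26) and mutant 2 (0.82), where Spinkl is also the highest of its group.

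Epididymal markers, checked because several members are known from that duct, were mostly dim. Of 19 genes, 2 had means above the median probe set, namely Adam28 and Lcn12. Crisp1, Rnase9 and Gpx5, abundant products of the epididymis, lay at the 2.6, 3.6 and 10.8 percentiles. The list had 12 positive and 7 negative differences (median 0.01), with 0 called (lowest limma adjusted p = 0.249; 2 of 19 at an unadjusted p under 0.05). Its summed intensity ran from 10.26 to 10.60 in wild type and from 10.25 to 10.47 in the mutants on the log2 scale. An exception was Adam7, a sperm-binding membrane protein gene of the epididymis. Adam7 read 8.31, 6.99 and 8.09 in wild-type mice and 5.95, 4.98 and 6.77 in mutants, a difference of -1.89 (SE 0.48, limma adjusted p = 0.249). Its groups did not overlap, but the difference did not pass the test. Of the 19 genes, 2 were lower in every mutant than in every wild-type mouse, Adam7 among them, against 6.01% of all genes. The other way, 3 were higher in every mutant, Lcn12 among them, against 8.34%. The testis list (6 genes, median -0.12) and the gut goblet cell list (5 genes, median 0.01) had 0 calls as well, with lowest limma adjusted p of 0.275 and 0.0911 and 2 and 1 genes at an unadjusted p under 0.05. The goblet cell list had 3 positive and 2 negative differences. Its gene Clca1 read 6.39, 6.35 and 6.55 in wild-type mice and 7.84, 7.43 and 8.23 in mutants. The Clca1 groups did not overlap, at a difference of 1.41 (SE 0.19, limma adjusted p = 0.0911). No gene was called in the urothelium (median -0.03), smooth muscle and fibroblast (-0.33), immune (0.49) or skeletal muscle (0.59) list (lowest limma adjusted p = 0.168). In that order 0 of 6, 6 of 9, 5 of 6 and 2 of 6 genes had an unadjusted p under 0.05, against 10.5% of all genes. In the immune list 4 of 6 genes were higher in every mutant than in every wild-type mouse, against 8.34% of all genes. All 5 smooth muscle genes of the combined list were negative, Myh11 (-0.79) the most, and all 4 fibroblast or stromal genes positive, Col1a1 (0.54) the most.

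Proteases that the members are known to restrain showed no call. Acr, the acrosin gene and target of Spink2, differed by 0.12 (SE 0.14), and the kallikrein genes Klk5, Klk7 and Klk14, targets of Spink5 in epidermis, by -0.14 (SE 0.13), 0.04 (SE 0.10) and -0.13 (SE 0.15). These 4 genes and the trypsin genes Prss2 (-0.08) and Prss3 (-0.20), chosen as partners after the values were seen, lay at or below the 38.2 percentile. The protease gene Ctsc, looked at in the same choice, was bright, at the 97.3 percentile, and differed by 0.01 (SE 0.14). Over all 48 serine and related proteases measured, 23 differences were positive and 25 negative, with a median of -0.01. Of the 48, 0 were called (lowest limma adjusted p = 0.255) and 11 had an unadjusted p under 0.05, against 10.5% of all genes.

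Among those proteases the smallest unadjusted p values belonged to genes with small differences. Lower in all 3 mutants were Tmprss11a (-0.39, SE 0.10), a transmembrane protease gene, and the glandular kallikrein gene Klk1b24 (-0.57, SE 0.17). Klk1b22 (-0.32, SE 0.13) overlapped. Sequences are alike within the Klk1b family, so its probe sets may share signal. Prss27 (0.33, SE 0.11), the hepsin gene Hpn (0.40, SE 0.15) and Plat (0.46, SE 0.18), the gene of tissue plasminogen activator, were higher in all 3 mutants. The highest limma adjusted p of these 6 was 0.463.

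Other genes with Kazal-type domains showed no shared direction. Of 22 measured, 14 were positive and 8 negative (median 0.05), with 0 calls (lowest limma adjusted p = 0.242; 3 genes at an unadjusted p under 0.05). Kazald1, a secreted protein gene, read 7.27, 7.43 and 7.85 in wild-type mice and 6.74, 7.01 and 6.89 in mutants, a difference of -0.64 (SE 0.16). Its groups did not overlap. Smoc1 (-0.28) and Spock2 (-0.15), both of matrix proteins, were also lower in all 3 mutants. Wfikkn2 (0.38), of a protein that binds growth factors of the TGF-beta family, was higher in all 3, while the matrix protein genes Sparc (0.33) and Fstl1 (0.34) overlapped.

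Inhibitors of other families included larger differences than those of most Spink genes. Of 36 genes with WAP, Kunitz, cystatin or serpin domains, 20 were positive and 16 negative (median 0.03), with 0 calls (lowest limma adjusted p = 0.195; 7 genes at an unadjusted p under 0.05). Wfdc6b, a WAP-domain gene, read 7.65, 8.13 and 8.77 in wild-type mice and 6.11, 5.13 and 7.17 in mutants, a difference of -2.05 (SE 0.49, limma adjusted p = 0.225). Wfdc3 (-1.20) and Wfdc8 (-0.73) were lower in all 3 mutants as well. Wfdc2 (1.23), Wfdc18 (1.27) and the Kunitz inhibitor gene Spint1 (0.43) were higher in all 3.

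The genes most like the variable members were found by the root mean square difference over the 6 mice, after each gene's own mean was subtracted. Only Spink11, Spinkl and Spink5 had an SD over the 6 mice above 0.5, and 4 genes were named for each. Nearest to Spink11 were Hal (0.39), the histidine ammonia-lyase gene, Pate14 (0.57), the defensin gene Defb10 (0.68) and Wfdc6b (0.78). Their differences were -2.44, -2.19, -1.94 and -2.05, a direction fixed by the choice, since the group difference makes up most of the Spink11 profile. Hal read 8.13, 8.24 and 8.17 in wild-type mice and 5.74, 5.75 and 5.72 in mutants.

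Nearest to Spinkl were Oaz1 (0.39), an inhibitor of polyamine synthesis, Rps25 (0.41), a ribosomal protein gene, Gm21953 (0.41) and Fgl1 (0.42), which encodes a fibrinogen-like protein. Oaz1 was lower in every mutant by a margin of less than 0.01, at a difference of -1.0 (SE 0.32), and Rps25 overlapped between the groups at -0.96 (SE 0.52). Nearest to Spink5 were Anpep (0.25), an aminopeptidase gene, Rhox3a (0.28), the phosphate transporter gene Slc34a2 (0.31) and Klf5 (0.32), an epithelial transcription factor. Rhox3a was dim, at 2.955 to 4.867 over the 6 mice. Klf5 read 10.74, 10.19 and 9.75 in wild-type mice and 11.42, 10.96 and 11.12 in mutants, a difference of 0.94 (SE 0.24). As with Spink5, wild-type mouse 3 was the lowest and mutant 1 the highest of all 6, a likeness that follows from the choice by nearness. These likenesses rest on 6 mice and carry no test.

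**Figure D5:**
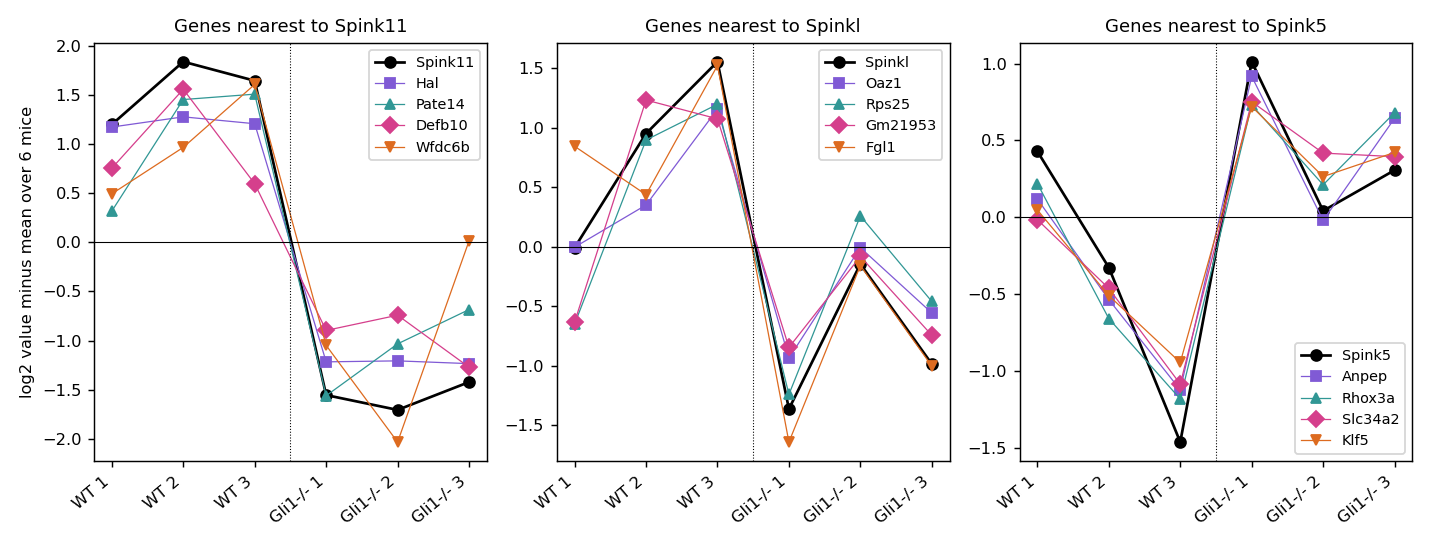
Log2 values minus the mean over the 6 mice for Spink11, Spinkl and Spink5 (black) and the 4 genes nearest to each by root mean square difference; lines imply no order of mice. Hal follows Spink11 with little spread between mice, and the 4 genes near Spink5 share its low value in wild-type mouse 3 and high value in mutant 1. These likenesses follow from the choice by nearness.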

How the data were processed

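The deposited table held log2 intensities for 32025 probe sets in 6 samples, made by the authors with RMA and Partek per the submitters' processing notes, without versions. Neither array model nor genome build is given in the sources used here. RMA removes background and puts arrays on a common scale, although sample medians still lay between 6.76 and 6.95. In such values differences of dim genes are compressed. Through RefSeq transcripts (table for GRCm38.p6), 25343 probe sets (79.1%) matched 1 gene. A gene was represented by its brightest probe set.

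The contrast Gli1-/- minus wild type used limma 3.58.1 under R 4.3.3 (lmFit, eBayes, all 6 samples, no covariate, two-sided), with Benjamini-Hochberg adjustment over 20263 genes, and called at an adjusted p under 0.05. The median replicate SD was 0.15, and the number of arrays limits precision. Each p-value sets the group difference against the spread between mice, with the variance of each gene moderated over all genes.

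Members and lists were chosen with earlier results of these data known. Named by rule were all Spink genes, the 3 genes of smallest unadjusted p per direction in the protease, Kazal and inhibitor lists, up to 3 bright genes per marker list, chromosomal neighbours, and 4 nearest genes per variable member. Svs1, Svs3a, Svs6, Sva, Svs3b, Sbpl, Myh11, Col1a1, Crisp1, Rnase9 and Gpx5 were named after their values were seen. No sequence is printed: those of the genes that differed most are not used here.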

Additional observations from a re-analysis of the deposited data

How the results depend on the processing

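Spink11, Spinkl, Spink1, Spink5, Spink8, Spink12 and Spink2 kept their direction under every alternative that gave a value, 14 or 15 for each gene. Several of these alternatives could not change a member's difference, because each member has 1 probe set. They were the replicate block, the intensity trend with robust variance, leaving out dim genes, and averaging or separating probe sets. Median centring moves all genes alike. The kept directions therefore rest on the remaining alternatives. With each mouse left out in turn, the log2 difference ran from -3.30 to -2.99 for Spink11, -2.08 to -1.30 for Spinkl, -0.73 to -0.49 for Spink1, 0.40 to 1.35 for Spink5, -0.68 to -0.20 for Spink8, -0.30 to 0.01 for Spink4 and -0.19 to 0.03 for Spink10. For Spink12 it ran from -0.117 to -0.003 and for Spink2 from 0.075 to 0.145. With all mice their SEs were 0.11 and 0.09, so the kept sign of these flat members is not a measurable difference. Spink4 turned direction in 2 alternatives and Spink10 in 3, among them array weights (Spink10 at 0.093). The number of genes called over all genes, 4, became 25 with the replicate block, 9 with median centring, 8 without the mice of highest seminal vesicle score in each group and 4680 with array weights, and 3 to 17 with single mice left out. Array weights gave wild-type mouse 2 a weight of 7.22 and mutant 3 a weight of 2.26, against 0.35 to 0.90 for the other 4, so that fit rests mainly on 2 mice and its calls are not used. Among the 199 other listed genes, 51 had an unadjusted p under 0.05, against 10.5% of all genes. Of the 199, 0 were called, 3 with the replicate block, 58 with array weights and 0 to 1 with single mice left out. The limma adjusted p behind the call of Spink11 was 0.00121, at most 0.0351 with a single mouse left out, and 0.0787 without the mice of highest seminal vesicle score. Correlations of deviations between same-numbered mice were 0.16, 0.25 and -0.15, and those between differently numbered mice ran from -0.32 to 0.25. With 3 mice in a group these do not decide whether the replicate numbers pair the mice. The block left the Spink11 difference at -3.12 and lowered the SE of Spinkl from 0.43 to 0.27. Leaving out dim genes, those with a mean below 4.91, removed Spink10 and Spink12. The cause of these changes was not tested beyond the number of genes or mice that each alternative keeps.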
